A study of Bos taurus with 34 samples.

Results

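Cell-free microRNAs (miRNAs) in blood were compared between cows with subclinical endometritis (SCE) and healthy cows at the first of a pair of samplings after calving, labelled day 25. The comparison takes 16 of the 34 samples of the series, 11 from SCE cows (cows 7 to 17) and 5 from healthy cows (cows 1, 2, 4, 5 and 6), with 1 library per cow. They were chosen by the labelled time point and animal status. A sixth healthy cow, cow 3, was left out because its day-25 file was identical to its day-45 file and carried the header of the later library. The animals are domestic cattle (Bos taurus), classed by cell smears and biopsies of the uterine lining. Neither a drug nor a genotype separates the groups, and the labels say nothing of the breed, age or parity of the cows. The sample labels name blood serum and day 25, whereas the design text names plasma and 21 days postpartum.

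Subclinical endometritis is an inflammation of the lining of the uterus without outward signs, in which neutrophils are found among the endometrial cells. A miRNA is a short RNA cut from a hairpin precursor. Its hairpin has a 5p and a 3p arm, and usually one of them is loaded into an Argonaute protein, where it pairs with messenger RNAs through its seed and lowers their output, while the other arm is degraded. Blood outside cells holds miRNAs in protein complexes and vesicles, released mainly by red blood cells, platelets, leukocytes, endothelium and liver. In such a sample a level is a share of the sequenced small RNA, so fewer cells of a type releasing RNA and less RNA per cell cannot be told apart.

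Each file gives the reads counted for 800 named bovine miRNAs, of which 752 had a count in at least 1 of the 16 libraries. Healthy cows had 7441148 to 23399406 counts in all and SCE cows 1343401, in cow 10, to 14085868. Levels below are in CPM, the count of a miRNA relative to the size of its library, after TMM scaling, which corrects for a few very abundant miRNAs taking up the reads. Such levels need not sum to the same total in each library. Each library correlated with the others at a median r of 0.93 to 0.97 over log levels. The library titles carry numbers of 13 to 23 for healthy and 31 to 51 for SCE cows, and since these do not overlap, any handling order they reflect cannot be told apart from the status. Red blood cells are an RNA source that could differ between libraries. miR-486, which is rich in these cells, took 81.1, 57.0, 24.8, 43.2 and 45.3% of counts in healthy cows 1, 2, 4, 5 and 6. In SCE cows 7, 8, 9, 10 and 13 it took 79.0, 49.4, 27.8, 43.4 and 41.8%, within the healthy range, and in cows 11, 12, 14, 15, 16 and 17 it took 10.8, 6.26, 4.0, 8.72, 4.06 and 4.04%, below every healthy cow.

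At day 25 edgeR called 1 miRNA, miR-425-3p, higher in SCE than in healthy cows, and it called none lower. miR-425-3p was the only one of 372 miRNAs tested with an adjusted p under 0.05 (0.269% called, edgeR quasi-likelihood test, Benjamini-Hochberg). It was also the only one whose 2 groups did not overlap in TMM-scaled level (0.269% of those tested). At an unadjusted p under 0.05 stood 75 miRNAs (20.2%), of which 43 were higher in SCE cows (11.6%) and 32 lower (8.6%). These are counts of names, and some names share reads, such as miR-338 with miR-3065 and miR-6529a with miR-6529b. Scaled by DESeq2's size factors the split became 42 higher and 43 lower, and scaled by TMM computed without miR-486 it became 53 higher and 17 lower. The latter scaling moved the median of all tested miRNAs up by 0.13 (log2). Over all tested miRNAs 178 were higher and 194 lower, with a median log2 fold change of -0.05.

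By abundance, miRNAs with an unadjusted p under 0.05 lay more often below 0 than above it only among the commonest, a split that was not tested. Among the 60 miRNAs with a mean over 1000 CPM the median log2 fold change was -0.36, and 8 were higher and 13 lower at an unadjusted p under 0.05. Among the 90 with 10 to 100 CPM the median was 0.04, with 16 higher and 4 lower. The 64 between 100 and 1000 CPM had a median of 0.08 with 6 higher and 2 lower, and the 158 under 10 CPM a median of -0.06 with 13 in each direction. Cows of 1 group varied widely, with a median coefficient of variation of 0.73 in healthy and 0.61 in SCE cows, and the median standard error of a log2 fold change was 0.56.

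**Figure D1:**
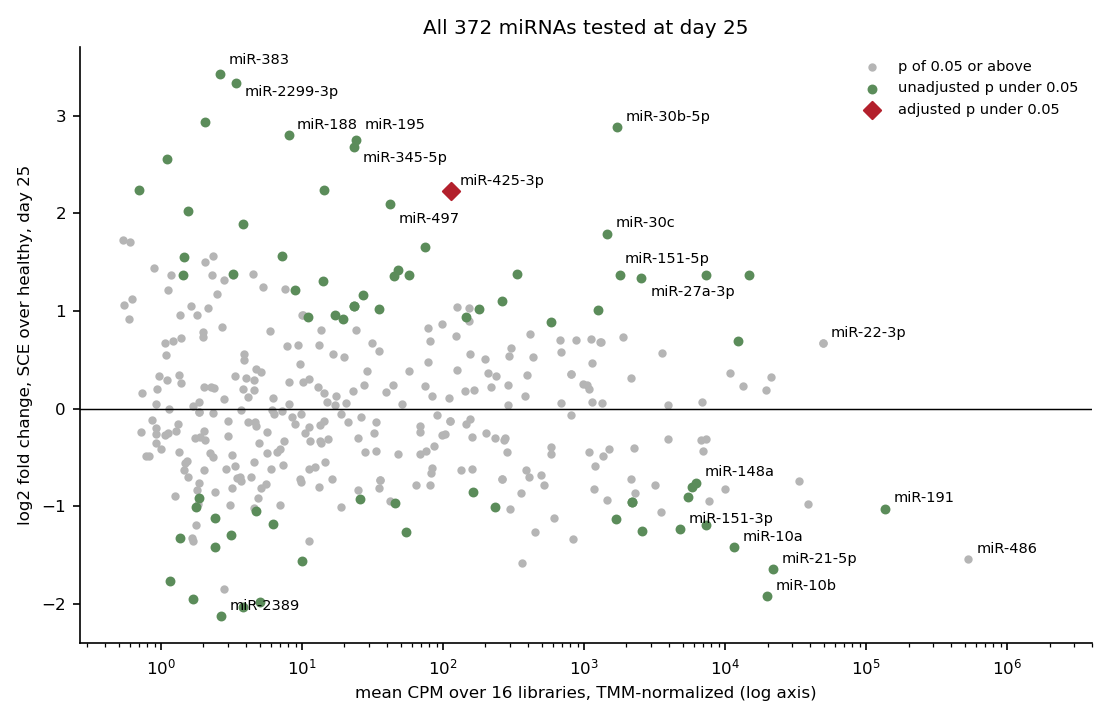
Log2 fold change of SCE over healthy cows (vertical axis) against the mean level over 16 libraries in TMM-normalized CPM (horizontal log axis), 1 point for each of 372 miRNAs tested. The diamond is miR-425-3p at 2.23, the single miRNA under an adjusted p of 0.05 by edgeR. Green points are the others at an unadjusted p under 0.05, and among those over 1000 CPM more lie below 0 (13) than above it (8).

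miR-425-3p comes from the less used arm of its hairpin. In the healthy cows it stood at 28.9, 19.4, 39.9, 33.8 and 40.3 CPM. In SCE cows it ran from 46.7 CPM in cow 7 through a median of 126 to 279 CPM in cow 16. All 11 SCE cows lay above the highest healthy cow, and the gap between the nearest cows of the groups, 40.3 and 46.7 CPM, was narrow. The fold change was 4.68 (log2 2.23, SE 0.46, 95% interval 1.32 to 3.14, edgeR adjusted p = 0.036). Scaled by library totals alone, healthy cows stood at 10.3, 13.7, 34, 33.3 and 18.4 CPM, and SCE cow 7, at 19.4, fell among them, so that 10 of 11 SCE cows lay above. On that scale miR-11973, a miRNA named in cattle, was the one without overlap.

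The level of miR-425-3p was also set beside the share of miR-486 within the SCE group. SCE cows 12, 14, 15, 16 and 17, with 4.0 to 8.72% of counts in miR-486, stood at 196, 185, 260, 279 and 215 CPM. SCE cows 7, 8, 9, 10 and 13, with miR-486 shares inside the healthy range, stood at 46.7, 96.6, 75.2, 66.5 and 124 CPM. SCE cow 11, with 10.8% of counts in miR-486, stood at 126 CPM, next to cow 13 with 41.8%. All of these lay above the healthy cows in TMM-scaled level. In a model that holds miR-486 relative to miR-23a constant, the log2 fold change of miR-425-3p was 1.2 (edgeR adjusted p = 0.251). miR-23a itself had a log2 fold change of 0.71 (SE 0.36), so that model also adjusts for the level of miR-23a. Under the other settings the adjusted p of miR-425-3p ran from 4.5e-05 by DESeq2 to 0.084 by edgeR in thinned libraries. The edgeR call ended when any 1 of healthy cows 1, 2, 4 and 6 or SCE cows 11, 12, 14, 15, 16 and 17 was left out, with adjusted p of 0.0096 to 0.125 and log2 fold changes of 2.09 to 2.39 over the 16 fits.

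**Figure D2:**
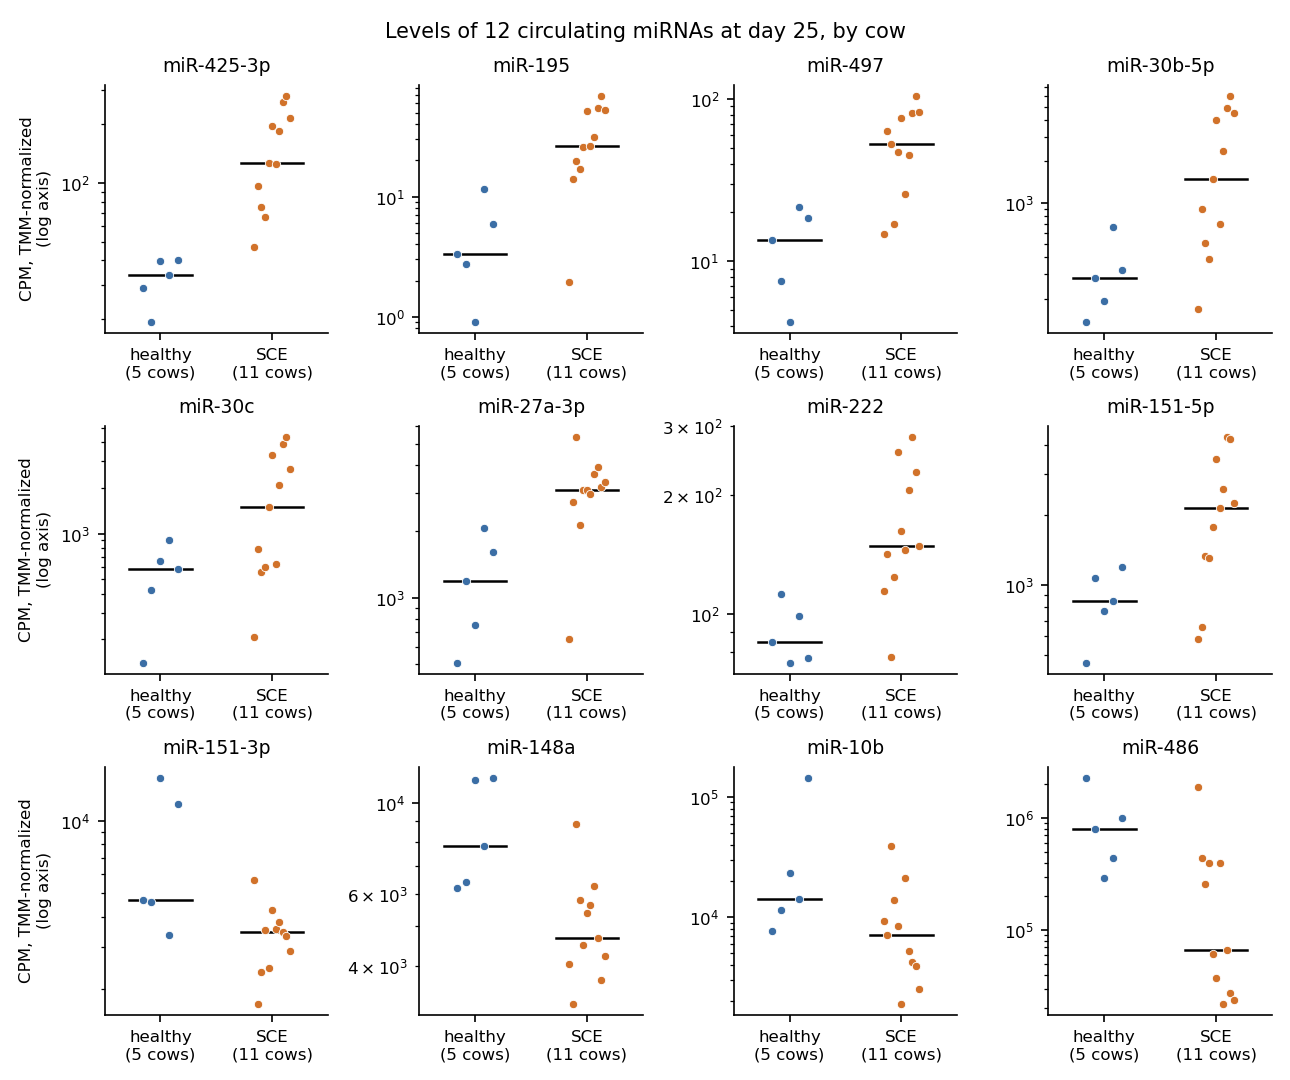
TMM-normalized CPM (vertical log axes) of 12 miRNAs, 1 point per cow, with 5 healthy and 11 SCE cows. Bars are group medians. The groups do not overlap for miR-425-3p, and in the other panels at least 1 cow lies in the range of the other group.

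The neighbouring hairpin did not share the direction of miR-425-3p. Within 10 kb of it in RefSeq (assembly ARS-UCD2.0) lies miR-191, one of the most abundant miRNAs of blood cells and platelets. Healthy cows had 75450, 111100, 296900, 54890 and 508200 CPM of miR-191 and SCE cows from 42370 through a median of 105700 to 175400 CPM. The SCE cows lay mostly inside the healthy range, the spread of which was set by healthy cows 4 and 6 (log2 fold change -1.02, SE 0.45, edgeR adjusted p = 0.220). Without healthy cow 6 the value of miR-191 was -0.42. miR-425-5p, the main arm, stood at 1495, 778, 411, 1005 and 852 CPM in healthy cows and at 662 to 1770, median 1403, in SCE cows. These ranges overlapped for 8 of 11 SCE cows, at a log2 fold change of 0.46 (SE 0.35, 95% interval -0.22 to 1.15, edgeR adjusted p = 0.476).

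The ratio of the arms of one hairpin within a library does not depend on how libraries are scaled. It was computed after the levels had been seen, for the 29 hairpins with both arms tested, in 13 of which the arms had log2 fold changes of opposite sign. The ratio differed between groups for 5 hairpins (17.2%, exact permutation test, adjusted p under 0.05), namely miR-2299, miR-151, miR-99a, miR-425 and miR-345. In each of the 5 the scarcer arm made up a larger part of the pair in SCE cows. The same direction held for 23 of all 29 hairpins and for all 10 with an exact p under 0.05 (34.5%). These also took in miR-2411, let-7a, miR-199a, miR-423 and miR-21. With libraries thinned to the shallowest it held for 20 of 29. Without healthy cow 1, 2 or 5 it held for 8 of 9, 10 of 11 and 9 of 10 hairpins with an exact permutation p under 0.05. The reads of miR-199a-3p cannot be told apart from those of miR-3604, so the miR-199a ratio is uncertain.

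The hairpin miR-151 lies in an intron of the gene for focal adhesion kinase in mammals, and both its arms are used. miR-151-5p was 8.95, 18.8, 4.81, 20.3 and 9.18% of the counts of both arms in healthy cows. In SCE cows it was 9.30% in cow 7 and 27.0 to 56.0% in the others, with a median of 40.5%. All SCE cows except cow 7 lay above every healthy cow. The log2 ratio of miR-151-5p to miR-151-3p was -3.01 ± 0.97 (SD, n = 5) in the healthy group and -0.79 ± 1.01 (SD, n = 11) in the SCE group, a difference of 2.22 (exact permutation p = 0.0014, adjusted p = 0.013 over 29 hairpins).

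Both arms contributed to that difference, as values in opposite directions. miR-151-5p stood at 461, 1065, 766, 849 and 1194 CPM in healthy cows and at 583 to 4322, median 2129, in SCE cows, 9 of 11 above every healthy cow (log2 fold change 1.37, SE 0.47, edgeR adjusted p = 0.185). miR-151-3p stood at 4691, 4611, 15160, 3340 and 11820 CPM in healthy and at 1732 to 5687, median 3464, in SCE cows (log2 fold change -1.24, SE 0.36, edgeR adjusted p = 0.117). For miR-151-3p healthy cows 4 and 6 lay far above all SCE cows, and the other healthy cows lay among them.

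In the miR-425 hairpin the 3p arm was 1.90, 2.44, 8.86, 3.25 and 4.51% of the pair in healthy cows and 2.99 to 20.6%, median 10.5%, in SCE cows. Healthy cow 4 was the highest of its group, and 7 of 11 SCE cows lay beyond it. The log2 ratio of 5p to 3p was 4.73 ± 0.91 (SD, n = 5) in the healthy group and 3.18 ± 0.82 (SD, n = 11) in the SCE group, a difference of -1.55 (exact permutation p = 0.0048, adjusted p = 0.035). In the miR-345 hairpin the 5p arm was 6.11, 2.56, 1.56, 11.8 and 1.87% of the pair in healthy cows and 6.71 to 39.2%, median 9.61%, in SCE cows. SCE cows 12, 15, 16 and 17 lay above every healthy cow, and the other 7 lay below healthy cow 5 (log2 difference 2.04, exact permutation p = 0.0062, adjusted p = 0.036).

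The miR-2299 and miR-99a hairpins rest on few reads of the scarcer arm. miR-2299-3p had at most 130 counts in a library and no count in 2 libraries, and it made up 2.60, 8.44, 0, 3.72 and 0% of its pair in healthy cows (the counts of 0 allow up to 0.949% in cow 4 and 1.82% in cow 6, counting error only) against 2.22 to 36.9%, median 16.1%, in SCE cows. miR-99a-3p had at most 63 counts and none in 2 libraries. The log2 ratio of 5p to 3p differed by -3.62 for miR-2299 and by -3.75 for miR-99a (exact permutation, adjusted p = 0.013 for each). With all libraries thinned to 1343401 counts no hairpin passed adjustment, and 7 had an exact p under 0.05. For miR-151 the thinned log2 difference was still 2.22, and the healthy range was exceeded in 10 of 11 SCE cows (exact permutation p = 0.0021, adjusted p = 0.0598). The thinned log2 differences of scarcer to commoner arm were 1.30 for miR-425, 1.93 for miR-345, 2.02 for miR-2299 and 1.72 for miR-99a. Among the 12 hairpins with at least 10 counts of each arm in every library, miR-151, miR-425 and miR-345 passed, and 11 of the 12 leaned to the scarcer arm.

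The call of the miR-151 ratio held in each of 16 repeats that left out 1 cow, as did those of miR-2299 and miR-99a. That of miR-425 was lost on leaving out any of healthy cows 1, 2 and 5 and SCE cows 12, 15 and 17. That of miR-345 was lost on leaving out any of healthy cows 2, 4 and 6 and SCE cows 12, 15 and 17. At day 45, in 6 healthy and 11 SCE cows, 2 of 29 hairpins passed (6.9%), miR-425 and miR-296, with the scarcer arm relatively higher in SCE cows in both. There the log2 ratio of scarcer to commoner arm differed by 1.44 for miR-425 (exact permutation p = 7.3e-04, adjusted p = 0.011) and by 0.92 for miR-151 (exact permutation p = 0.190). Whether the arm ratios differ between the days was not tested.

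**Figure D3:**
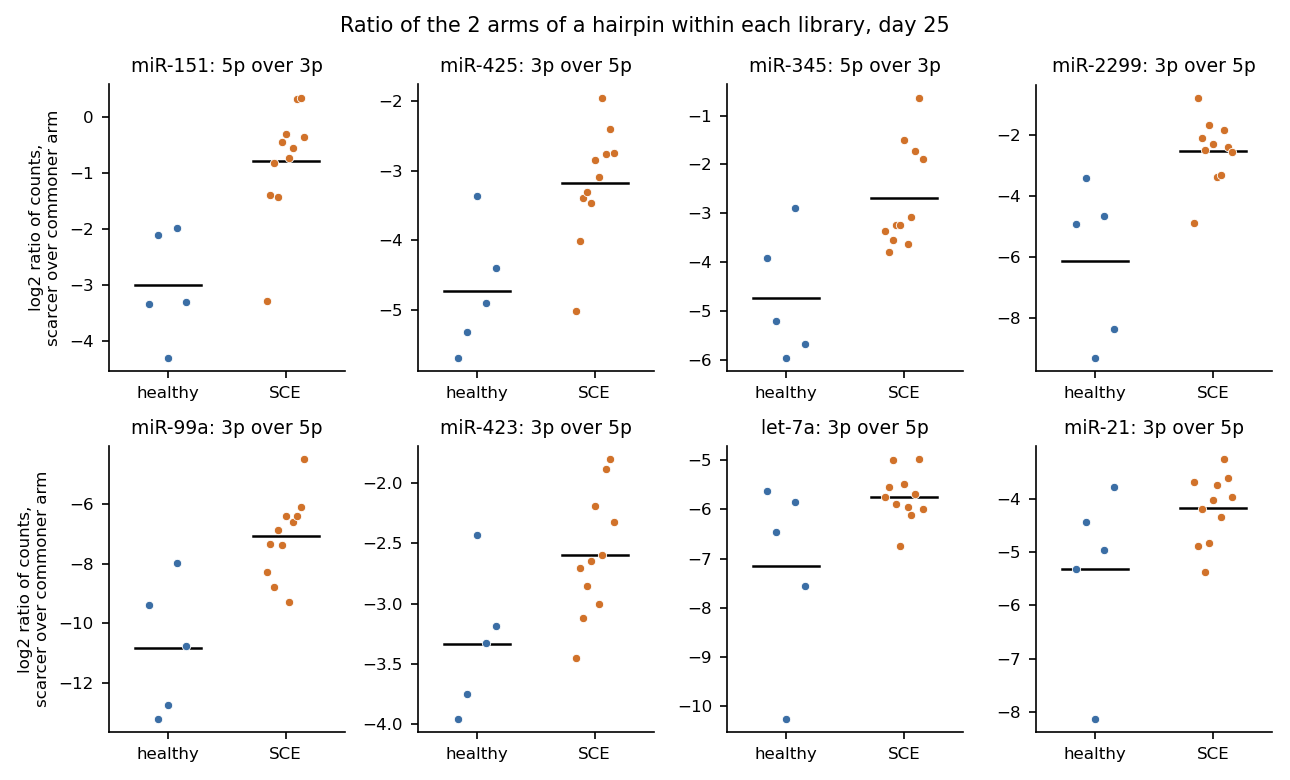
Log2 ratio of the counts of the scarcer to the commoner arm of 8 hairpins (vertical axis), 1 point per cow, with group means as bars. In every panel the SCE mean is above the healthy mean, and for miR-151 all SCE cows except cow 7 lie above the healthy cows. Of the 8, miR-423, let-7a and miR-21 had an adjusted p of 0.05 or more.

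Among miRNAs that edgeR did not call, the pair miR-195 and miR-497 had some of the lowest p. Both belong to the miR-15/16 family, which represses cyclins and BCL2, and they neighbour each other in the genome. miR-195 stood at 3.33, 2.72, 0.908, 11.5 and 5.88 CPM in healthy cows and at 1.95 to 69.2, median 26.3, in SCE cows. Except for cow 7, at 1.95, every SCE cow lay above every healthy cow (log2 fold change 2.75, SE 0.69, edgeR adjusted p = 0.0695). miR-497 stood at 13.5, 7.53, 4.24, 21.6 and 18.5 CPM in healthy and at 14.8 to 105, median 52.7, in SCE cows, with cows 7 and 10 inside the healthy range (log2 fold change 2.09, SE 0.53, edgeR adjusted p = 0.0695).

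Among the other members of that family, miR-16b, the most abundant, had a log2 fold change of 0.07 (SE 0.42), below 0 in thinned libraries and under a stricter filter, and miR-15a of 0.07 (SE 0.40). miR-15b stood at 0.40 (SE 0.35). miR-16a stood at 1128, 566, 306, 1289 and 402 CPM in healthy and at 584 to 2472, median 1572, in SCE cows, 6 of 11 above every healthy cow (log2 fold change 1.01, SE 0.40, edgeR adjusted p = 0.185). All 6 tested members of the family thus had values above 0, with a median of 0.70 against -0.05 for all tested miRNAs. Of the 6, 3 had an unadjusted p under 0.05, all higher. Over all tested miRNAs 11.6% were higher at that threshold, and 20.2% passed it in either direction.

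Members of the miR-30 family, which acts in epithelial and endothelial identity, stood on both sides. miR-30b-5p was at 136, 284, 192, 661 and 324 CPM in healthy cows and at 169 to 6015, median 1491, in SCE cows. In 8 of 11 SCE cows it was above every healthy cow, and SCE cows 7, 9 and 10 lay inside the healthy range (log2 fold change 2.88, SE 0.78, 95% interval 1.36 to 4.40, edgeR adjusted p = 0.079). miR-30c was at 140, 424, 656, 903 and 585 CPM in healthy cows and at 208 to 4356, median 1505, in SCE cows, 6 of 11 above every healthy cow (log2 fold change 1.79, SE 0.65). In the model that holds miR-486 relative to miR-23a constant, miR-30c stood at -0.18.

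miR-30a-5p, with the same family seed, lay on the other side of 0. It was at 2440, 2233, 1513, 7611 and 7482 CPM in healthy and at 473 to 4941, median 1476, in SCE cows, and 6 of 11 SCE cows lay below every healthy cow (log2 fold change -1.25, SE 0.53, edgeR adjusted p = 0.186). The abundant miR-30d and miR-30e-5p stood at 0.23 (SE 0.36) and 0.36 (SE 0.30), and the scarce miR-30f at 0.65 (SE 0.57). The family median was 0.51, with 5 of 6 members above 0. SCE cows 12, 14, 15, 16 and 17, those with the lowest miR-486 shares, held both the highest miR-30b-5p, at 2382 to 6015 CPM, and the lowest miR-30a-5p, at 473 to 857 CPM.

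Several further miRNAs were higher in SCE cows as values that edgeR did not call. miR-27a-3p, of the miR-23a cluster that is active in myeloid cells, stood at 507, 1185, 751, 2063 and 1609 CPM in healthy and at 650 to 5370, median 3091, in SCE cows. All SCE cows except cow 7 lay above every healthy cow (log2 fold change 1.34, SE 0.43, edgeR adjusted p = 0.185). miR-222, which targets the cell-cycle inhibitor p27, stood at 84.8, 112, 75.2, 98.8 and 77.3 CPM in healthy and at 77.7 to 281, median 148, in SCE cows. Here the exception was cow 9, and 10 of 11 lay above (log2 fold change 0.94, SE 0.35, edgeR adjusted p = 0.185), while miR-221 of the same cluster stood at -0.79 (SE 0.46).

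Several scarce miRNAs also had large values that edgeR did not call. miR-2299-3p, at 0 to 1.18 CPM in healthy and 0.389 to 9.74 CPM in SCE cows, stood at a log2 fold change of 3.33 (SE 0.77, edgeR adjusted p = 0.056). Only SCE cow 7 lay within the healthy range. miR-345-5p, at 1.72 to 9.81 against 5.84 to 104 CPM, stood at 2.68 (SE 0.77, edgeR adjusted p = 0.115). Here cows 12, 14, 15, 16 and 17 lay at 36.6 CPM or more and the other SCE cows at 11.4 or less. miR-188, at 0 to 3.56 against 0 to 25.8 CPM, stood at 2.80, miR-193a-3p at 2.24, miR-2483-5p at 2.94, miR-628 at 1.57 and miR-383 at 3.43, each with edgeR adjusted p = 0.185. miR-383 had no count in 3 of 5 healthy and 2 of 11 SCE cows, so its fold change leans on the prior count of the fit, and it ran from 2.92 to 5.91 as 1 cow was left out, the highest without healthy cow 6. miR-145, which marks smooth muscle, was at 5.90 to 44.2 CPM in healthy and 18.3 to 151 CPM in SCE cows, at a log2 fold change of 1.37 (SE 0.52), and its cluster partner miR-143 stood at -0.95 (SE 0.53).

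On the lower side edgeR called no miRNA, and the values often rested on 1 or 2 healthy cows. miR-10b, from the HOXD cluster and abundant in endothelium and stroma, stood at 7703, 11370, 23260, 14060 and 144500 CPM in healthy and at 1900 to 38860, median 7042, in SCE cows. SCE cows 8, 12, 14, 15, 16 and 17 lay below every healthy cow, and healthy cow 6 stood apart at the top. The log2 fold change was -1.92 (SE 0.67, edgeR adjusted p = 0.185), and it ran from -2.36 to -0.47 as 1 cow was left out. miR-10a, from the HOXB cluster, stood at -1.42 (SE 0.53), with healthy cows 4 and 6 at 48810 and 38360 CPM and the other healthy cows inside the SCE range. Without healthy cow 4 it was -0.80.

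miR-21-5p, which is induced in inflammation, was at 5124, 6475, 164600, 15300 and 14560 CPM in healthy and at 3711 to 23580, median 13380, in SCE cows. Healthy cow 4 stood far above every SCE cow and the other healthy cows lay among them. The log2 fold change of -1.64 (SE 0.61) became 0.38 without healthy cow 4. The same cow held the highest miR-320a, at 6636 CPM against 857 to 1931 in SCE cows (log2 fold change -1.13, SE 0.41, edgeR adjusted p = 0.185), and without it the log2 fold change of miR-320a was -0.46. miR-193b stood at -1.26 (SE 0.45), with no SCE cow below every healthy cow. It was -0.71 without healthy cow 5 and -0.60 with the log2 total count as a covariate.

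A few lower values were shared by most SCE cows instead. miR-148a, abundant in liver, stood at 6182, 6398, 11370, 7846 and 11490 CPM in healthy and at 3237 to 8850, median 4691, in SCE cows, and 9 of 11 SCE cows lay below every healthy cow. The log2 fold change was -0.76 (SE 0.30, edgeR adjusted p = 0.185), and it was between -0.86 and -0.62 with any 1 cow left out. Its neighbour miR-148d had 10 of 11 SCE cows below every healthy cow (log2 fold change -0.81, SE 0.31). miR-1839 stood at 325, 137, 279, 259 and 168 CPM in healthy and at 100.3 to 178, median 120, in SCE cows, 8 of 11 below every healthy cow (log2 fold change -0.85, SE 0.29, edgeR adjusted p = 0.185). The scarce miR-2389 and miR-7691, at most 14.1 and 3.33 CPM in any cow, stood at -2.13 (SE 0.57, edgeR adjusted p = 0.079) and -1.76 (SE 0.67).

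DESeq2, the tool named in the design text, called 14 of 522 miRNAs with an adjusted p (2.68%). On the higher side stood miR-425-3p, miR-2299-3p, miR-195, miR-497, miR-30b-5p, miR-345-5p, miR-188, miR-27a-3p, miR-2483-5p, miR-193a-3p and miR-7859, 11 in all, and on the lower side the 3 miRNAs miR-2389, miR-151-3p and miR-2323. Its log2 fold changes lay close to those of edgeR, as 2.15 against 2.23 for miR-425-3p and 2.85 against 2.88 for miR-30b-5p. miR-7859 and miR-2323 were too scarce to be tested by edgeR. miR-7859 was at 0 CPM in 4 of 5 healthy cows and at most 0.893 CPM in any SCE cow, and miR-2323 reached 4.24 CPM in healthy cow 4 and at most 0.268 CPM in SCE cows.

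The 10 most abundant miRNAs were miR-486, miR-191, miR-22-3p, miR-3600, miR-192, miR-21-5p, miR-27b, miR-10b, miR-423-5p and miR-142-5p. miR-486 had a log2 fold change of -1.54 (SE 0.85, edgeR adjusted p = 0.296), which was -0.88 without healthy cow 1 and -2.46 without SCE cow 7. miR-451 and miR-144, which share a red blood cell cluster, stood at -0.44 (SE 0.65) and -0.30 (SE 0.63), so the 3 defining red blood cell miRNAs differed in size. miR-22-3p, whose reads cannot be told apart from those of miR-3600, was at 14860 to 46250 CPM in healthy and 31890 to 83110, median 51600, in SCE cows (log2 fold change 0.67, SE 0.36). miR-192, rich in liver and gut, stood at -0.97 (SE 0.51), and miR-423-5p, often used as a reference in blood, at -0.75 (SE 0.50), or -0.26 without healthy cow 1. miR-27b and miR-142-5p, the latter specific to blood cells, stood at 0.33 (SE 0.35) and 0.19 (SE 0.35).

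As measures of whole libraries, 7 quantities were compared by an exact permutation test over every choice of 5 of 16 libraries. After thinning to 1343401 counts, 353 ± 37.1 miRNAs (SD, n = 5) were detected in the healthy group and 418 ± 28.7 (SD, n = 11) in the SCE group, a difference of 64.1 (exact p = 0.0037, adjusted p = 0.026 over the 7 measures). The healthy values were 336, 364, 309, 409 and 349, and SCE values ran from 344 through a median of 423 to 448. In 9 of 11 SCE cows the number expected over draws was above that of every healthy cow. With miR-486 left out before thinning, which was then to a lower depth of 760020 counts, the expected number differed by 34.8 (exact permutation p = 0.024, unadjusted). The SCE cows beyond the healthy range were then 4 of 11. Without healthy cow 1 the difference was 59.8 (exact permutation, adjusted p = 0.077).

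No other of the 7 measures passed adjustment. The 10 most abundant miRNAs took 84.4 ± 7.73% (SD, n = 5) of healthy and 73.5 ± 8.25% (SD, n = 11) of SCE counts, and the log2 miR-486/miR-23a ratio differed by -3.31 in SCE minus healthy cows (exact permutation, adjusted p = 0.0597 for each). Total counts averaged 14555228 in healthy and 8432112 in SCE cows (exact permutation p = 0.0341, adjusted p = 0.0597). The log2 miR-451/miR-23a ratio, which is used to gauge lysis of red blood cells, differed by -0.78 (exact permutation p = 0.469). The part of red blood cell RNA in the results above was not tested beyond the covariate fits. Both ratios in those fits also move with miR-23a, which had a log2 fold change of 0.71 (SE 0.36) in SCE over healthy cows.

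**Figure D4:**
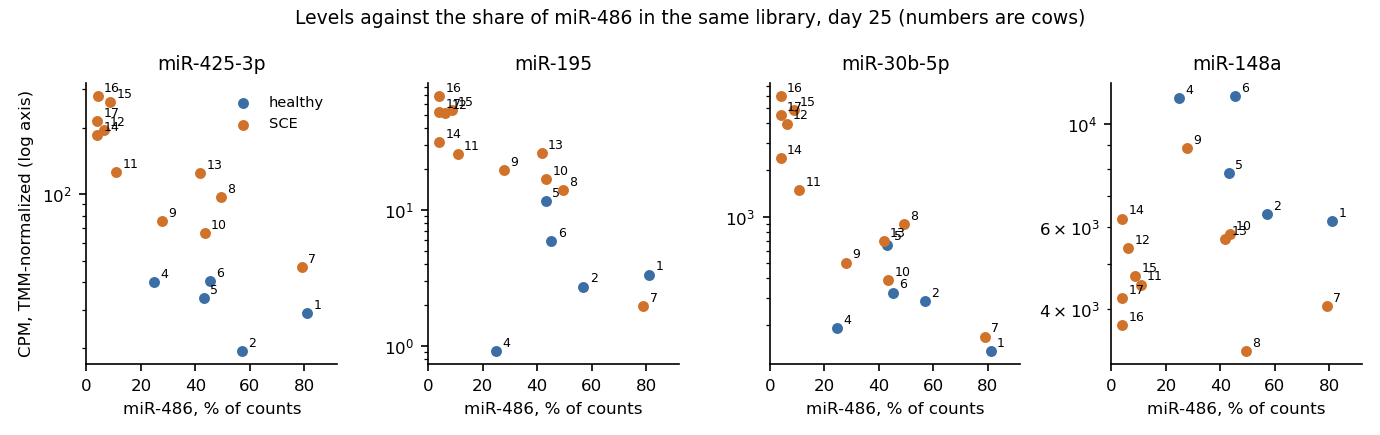
TMM-normalized CPM (vertical log axes) of 4 miRNAs against the percentage of the library's counts in miR-486, 1 numbered point per cow, blue for healthy and orange for SCE. SCE cows 11, 12, 14, 15, 16 and 17 lie at 10.8% or less. At shares of 24.8% and more, where both groups have cows, the TMM-scaled miR-425-3p of SCE cows 7, 8, 9, 10 and 13 lies above the healthy cows, though by library totals that of cow 7 (19.4 CPM) lies among them (up to 34 CPM), and miR-30b-5p of cows 7, 9 and 10 lies among the healthy cows.

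Lists of miRNAs known from cell types and families are described by their counts and medians, to be read beside the all-miRNA share of 20.2% at an unadjusted p under 0.05 and the median of -0.05. In no list did edgeR call a member. The lymphocyte list had 9 of 13 members above 0 and a median of 0.70. Its members at an unadjusted p under 0.05 were miR-29b (1.17), miR-29c (1.38) and miR-26a (1.37). Of its defining members, miR-28 (1.03), miR-150 (0.74) and miR-342 (0.70) stood above 0, and miR-155 (-0.10) and miR-181a (-0.32) below it. Summed over the list, healthy cows had 11540 to 27250 CPM and SCE cows 10620 to 64480 CPM, with miR-26a alone at 3199 to 38070 CPM in SCE cows.

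The epithelium list, led by miR-141, miR-375 and miR-200a, had 6 of 7 members above 0 and a median of 0.80, with none at an unadjusted p under 0.05. The miR-200 family keeps epithelial cells from turning mesenchymal by repressing ZEB1 and ZEB2. miR-200a was at 40.9, 121, 7.26, 105 and 87.6 CPM in healthy and at 40.1 to 584, median 113, in SCE cows, the top value coming from cow 9 (log2 fold change 1.04, SE 0.65). Summed over the list, healthy cows had 774 to 4038 CPM and SCE cows 656 to 8276 CPM, so the groups overlapped.

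Of the neutrophil and monocyte list 9 of 11 members stood above 0 with a median of 0.24 (8 of 11 by DESeq2's size factors). Its members miR-27a-3p, miR-145 and miR-338 (1.05, reads shared with miR-3065) had an unadjusted p under 0.05. Of these, miR-145 marks smooth muscle and is also in the endothelium and stroma list. By contrast miR-223, the defining granulocyte miRNA, stood at 0.06 (SE 0.44), a value that changed sign under 7 other settings and when single cows were left out. The inflammation-induced list had 5 of 11 members above 0 and a median of -0.10, which became 0.02 with TMM computed without miR-486. Of its members miR-146a stood at 0.87 (SE 0.70) and miR-155 at -0.10 (SE 0.48).

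The lists with the lowest medians were liver, with 7 of 10 members below 0 (median -0.68), the let-7 family, with 7 of 9 (-0.48), red blood cell, with 9 of 14 (-0.45), and miR-17-92 with its paralogs, with 9 of 15 (-0.40). In the liver list miR-148a and miR-193b were low and miR-193a-3p high, while miR-122, the most liver-specific, was scarce, at 0.454 to 32.4 CPM in healthy and 1.56 to 42.2 CPM in SCE cows (log2 fold change -0.61, SE 0.79). In the let-7 family miR-98 stood at -1.01 (SE 0.48), with 1109 CPM in healthy cow 4 and 65.4 to 274 CPM in SCE cows, and was 0.0875 without that cow. In the miR-17-92 list miR-25 stood at -1.19 (SE 0.57) and miR-92a at -0.83 (SE 0.41), with 7 and 6 of 11 SCE cows below every healthy cow. Without healthy cow 1 they were -0.74 and -0.46. These SCE cows again took in cows 11, 12, 14, 15, 16 and 17, those with the lowest shares of miR-486.

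The remaining medians were -0.26 for platelet (7 of 15 above 0), -0.16 for endothelium and stroma (6 of 15 above 0, 9 below), 0.19 for DLK1-DIO3, an imprinted cluster (6 of 10), and 0.31 for striated muscle (2 of 4). Of the muscle miRNAs, miR-206 had no count in any of the 16 libraries, which allows a level of up to 0.0181 CPM over the counts of all libraries, miR-1 had counts in healthy cow 1 and SCE cow 8 only, and miR-499 stood at 1.22 (SE 0.51). In the DLK1-DIO3 list 10 of 31 members were abundant enough to be tested.

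**Figure D5:**
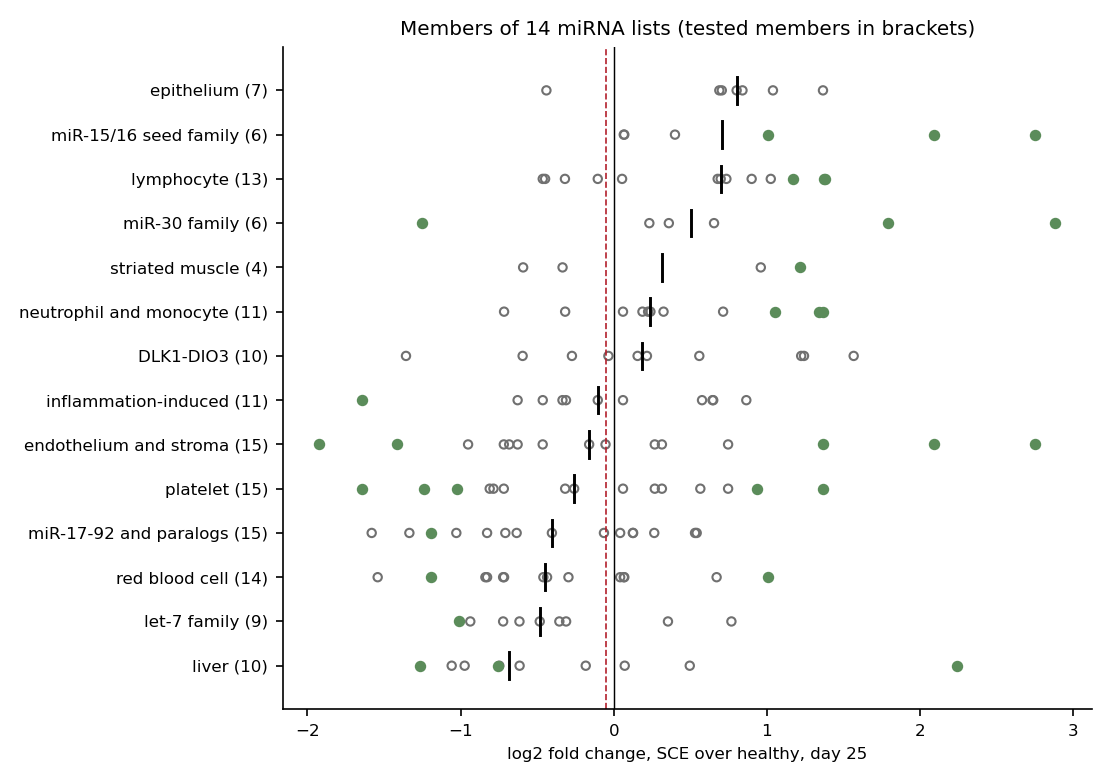
Log2 fold change of SCE over healthy cows (horizontal axis) for the tested members of 14 lists (vertical axis), with list medians as black ticks and the median of all tested miRNAs, -0.05, as the dashed line. Filled points have an unadjusted p under 0.05. Medians run from -0.68 for liver to 0.80 for epithelium, and in all lists except the miR-15/16 family members stand on both sides of 0.

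Hairpins that lie within 10 kb of each other are often cut from 1 transcript. Of 372 tested miRNAs, 364 matched a RefSeq gene by name. Some neighbours share reads, so no count over groups of neighbours is given. Of neighbours that stood on 1 side of 0 there were miR-195 with miR-497, miR-30c with miR-30e, the trio miR-200a, miR-200b and miR-429 (1.04, 0.84 and 0.80), and miR-141 with miR-200c (0.71 and 1.37), all above 0, miR-141 being at 0.04 without SCE cow 9 and miR-200c at 2.30 without healthy cow 1. miR-451 with miR-144 and miR-148a with miR-148d lay below 0. On both sides stood miR-143 and miR-145, miR-221 and miR-222, and miR-191 with miR-425.

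To ask whether these differences were particular to day 25, the status difference at day 45 minus that at day 25 was tested over all 33 libraries. The fit had no term for the cow, although most cows gave a library at both days, so its p-values take those libraries as independent. With the cow as replicate block instead, edgeR called 0 of 408 miRNAs. Without that block edgeR called 0 of 406 miRNAs (0% called), with 7 at an unadjusted p under 0.05 (1.72%). DESeq2, also without it, called 0, with 28 of 794 fitted miRNAs at an unadjusted p under 0.05. Values below are from the edgeR fit without the block. For miR-425-3p the log2 difference between statuses was 1.62 at day 45 (SE 0.45), and the change in the difference was -0.65 (edgeR p = 0.300). For miR-195 it was 0.59 at day 45 (SE 0.56), a change of -2.21 (edgeR p = 0.011, adjusted p = 0.988), and for miR-2299-3p it was 1.06, a change of -2.31 (edgeR p = 0.041, adjusted p = 0.988). miR-193b went from the lower to the higher side, at 0.31 at day 45, a change of 1.53 (edgeR p = 0.0498, adjusted p = 0.988). miR-10b stood at -1.59 at day 45 and miR-30b-5p at 1.49, so these values kept their side of 0.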

How the data were processed

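The authors deposited whole-number read counts of mature miRNAs in a separate file for each library, and no normalization is visible in them. Per the submitters' processing notes, bcl2fastq 2.17.1.14, genome build UMD 3.1 and DESeq2 were used, with the aligner and counter not given in the sources used here. Per the labels' protocols, 10 to 20 ng of small RNA and 13 or 16 PCR cycles were used, without molecular identifiers named, so intervals include counting of PCR copies. The cycles of a given library are not stated in the labels.

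Rows were joined by miRNA name. Status was tested with edgeR 4.0.16 (R 4.3.3; TMM, filterByExpr, quasi-likelihood F test, two-sided, Benjamini-Hochberg, 0.05), the standard error being the absolute log2 fold change over the square root of F. DESeq2 1.42.0, limma 3.58.1 voom, other scalings, filters, thinning, covariates and leaving out each cow were alternatives. The fit was tested on simulated data. Arm ratios (prior count 0.5) and library measures used exact two-sided permutation tests, and arm ratios were added after the data were seen. Named miRNAs were every call of either tool, the 25 of lowest p, the 10 most abundant, the 2 most abundant and the lowest-p members of each list, other arms, and 12 known from earlier results. miR-11973, miR-7859's levels, miR-143, miR-221, miR-148d, miR-30a-5p and other members shown beside a named one were named after their values were seen. Shared seeds were taken from family names, since no miRNA sequences were used here. Members and lists were chosen with earlier results of these data known. The 428 names not tested had at most 170 counts over the 16 libraries, and 111 of them had counts in SCE and 15 in healthy libraries only. Within a day, p-values measure the spread between cows. Those of the change between days take the libraries of the same cow as independent, except with the cow as replicate block.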

Additional observations from a re-analysis of the deposited data

Results flagged for a closer look

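Among 71 groups of 5 healthy values of named miRNAs, 5 (7.04%) held 1 cow that stood far from the other 4 on the log scale by Dixon's criterion, which chance alone meets in about 1 in 20 groups. Healthy cow 4 gave 3 of the 5. It had 3303 CPM of miR-223, a granulocyte and platelet miRNA, where the other healthy cows had 697 to 978. It had 0.454 CPM of miR-133a, a muscle miRNA, where the others had 12.9 to 29.8, and 19.1 CPM of miR-127, of the DLK1-DIO3 cluster. The other flags were miR-383 in healthy cow 6, at 2.06 CPM where the others had at most 0.303, and miR-7691 in healthy cow 2, at 0 CPM where the others had 2.06 to 3.33.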

How the results depend on the processing

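The number of miRNAs called was 1 under edgeR and became 4 with DESeq2's size factors, 4 with TMM computed without miR-486, 6 without a filter on low counts, 0 with libraries thinned to the shallowest, 14 with DESeq2, 2 with voom, 8 with the log2 total as a covariate and 2 with miR-451 relative to miR-23a. With miR-486 relative to miR-23a it was 1, then miR-11979 on the lower side and not miR-425-3p. It ran from 0 to 7 as 1 cow was left out, with 7 without SCE cow 7. The 75 at an unadjusted p under 0.05 became 129 without the filter, 48 after thinning and 47 with the miR-486 ratio, and 58 to 94 with 1 cow left out. The single miRNA without overlap became 0 after thinning and 1 to 8 with 1 cow left out. The 5 hairpins whose arm ratio passed became 0 after thinning and 3 to 7 with 1 cow left out. The extra miRNAs detected after thinning were 74 by medians (adjusted p = 0.055), 34.8 with miR-486 left out and thinning to 760020 counts, and 53 to 78 with 1 cow left out. For the other library measures the lowest and highest differences with 1 cow left out were -7901600 and -3912100 in total counts, -31.2 and -17.2 percentage points for miR-486, -13.1 and -8.62 for the 10 most abundant, and -3.85 and -2.70 for the log2 ratio of miR-486 to miR-23a, some of which then passed adjustment. The change of the status difference between days had 0 calls, 1 (miR-2440) without a filter, and 0 of 408 with the cow as replicate block, over the 16 cows with both days. At day 25 each cow gave 1 library, so nothing is paired there.

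Of 64 named miRNAs, 43 kept their sign under every setting run and 21 changed it under at least 1. With the miR-486 ratio as a covariate the log2 fold changes became 0.90 for miR-127, 0.52 for miR-133a, -0.083 for miR-142-5p, -0.32 for miR-21-3p, -0.69 for miR-223, -0.15 for miR-26a, -0.0155 for miR-27b, -0.18 for miR-30c, -0.36 for miR-30d, -0.032 for miR-30e-5p, 0.37 for miR-375, 0.25 for miR-423-5p and 0.15 for miR-432. With the miR-451 ratio they were 0.0257 for miR-127, 0.0155 for miR-133a and -0.0445 for miR-223. With voom they were 0.0631 for let-7f, 0.10 for miR-133a, 0.12 for miR-2299-5p and 0.20 for miR-345-3p. miR-2299-5p was 0.055 with TMM computed without miR-486. miR-16b was -0.0547 under the stricter filter and below 0, at -0.0027, after thinning. miR-223 was -0.0918 with DESeq2, -0.0921 with its size factors, -0.16 under the stricter filter, -0.0248 after thinning and -0.0254 with the total as a covariate. As 1 cow was left out the ranges crossed 0 for let-7f (-0.62 to 0.44), miR-127 (-0.54 to 0.0554), miR-133a (-0.63 to 0.0378), miR-16b (-0.12 to 0.45), miR-193a-5p (-0.46 to 0.76), miR-21-5p (-2.04 to 0.38), miR-223 (-0.13 to 0.79), miR-2299-5p (-0.28 to 0.24), miR-345-3p (-0.42 to 0.40), miR-375 (-0.69 to 0.17), miR-411a (-0.0213 to 0.38) and miR-98 (-1.34 to 0.0875). The cause of these changes was not tested. Depth limits the scarce miRNAs, as the shallowest library has 1343401 counts.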
